A study of Mus musculus with 8 samples.

Results

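The 34 genes described here are the Wnt ligands other than Wnt5a and Wnt5b, the Frizzled receptors, and 2 families of secreted antagonists, the secreted Frizzled-related proteins (Sfrp) and the Dickkopf proteins (Dkk). They were chosen by name among the 16419 genes of the deposited gene table: 17 Wnt genes, 9 Frizzled genes (Fzd1 to Fzd8 and Fzd10), 4 Sfrp genes (Sfrp1, Sfrp2, Sfrp4 and Sfrp5) and the 4 Dkk genes. The rule used names only, but it was set with earlier results of these data known. Fzd9 has no row in the gene table and was not analysed here.

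The values come from leukemia cells isolated from 8 transgenic mice, 1 Affymetrix Mouse Exon 1.0 ST array for each mouse. In the 4 TCL1 mice the cells carried the TCL1 transgene. The labels do not name its promoter. In the widely used Eµ-TCL1 model the human TCL1 oncogene is driven in B cells by an immunoglobulin heavy chain promoter and enhancer, and the mice develop an expansion of B cells that resembles chronic lymphocytic leukemia. In the 4 ROR1xTCL1 mice the cells carried a ROR1 transgene as well, so both groups share TCL1 and neither is normal. ROR1 is a surface receptor that binds Wnt5a. The species and promoter of the ROR1 transgene, the age and sex of the mice, the tissue the cells came from and the way they were purified are not given in the sources used here. All 9 B cell markers used (Cd79a, Ms4a1 and Cd5 among them) lay above the median gene. Mouse Ror1 read 3.67, 3.68, 3.72 and 4.03 on the TCL1 arrays and 4.07, 4.85, 4.25 and 4.49 on the ROR1xTCL1 arrays. The ROR1xTCL1 arrays were thus all higher, by 0.64 ± 0.18 (SE) on the log2 scale, a difference that missed the threshold over all genes (limma, Benjamini-Hochberg adjusted p = 1). Arrays of the gene table are called a to d within each group, and these letters carry no order.

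Wnt proteins are lipid-modified secreted ligands that act over short distances. They bind Frizzled receptors, multi-pass membrane proteins, together with the co-receptors Lrp5 and Lrp6 in the pathway that stabilises β-catenin, or with co-receptors such as Ror1, Ror2 and Ryk in pathways that do not use it. Sfrp proteins carry a Frizzled-like cysteine-rich domain and bind Wnts outside the cell, and Dkk1, Dkk2 and Dkk4 bind Lrp5 and Lrp6. In human chronic lymphocytic leukemia the cells have been reported to express several WNT genes, WNT3 and WNT10A among them, and FZD6 has been reported as raised in leukemias of Eµ-TCL1 mice.

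For 2 of the members with the highest values, Wnt10b and Fzd5, RefSeq gives a window of 300 bases around the gene start in build GRCm38.p6, from 250 bases before the start to 50 after it. Of the 4 members whose mean over the arrays exceeded the median gene, these are the 2 with a window in the table used. Wnt10b lies at chr15:98778101-98778400 and Fzd5 at chr1:64737701-64738000, both on the minus strand. They are written 5′ to 3′ on that strand, with CpG dinucleotides in capitals.
Wnt10b: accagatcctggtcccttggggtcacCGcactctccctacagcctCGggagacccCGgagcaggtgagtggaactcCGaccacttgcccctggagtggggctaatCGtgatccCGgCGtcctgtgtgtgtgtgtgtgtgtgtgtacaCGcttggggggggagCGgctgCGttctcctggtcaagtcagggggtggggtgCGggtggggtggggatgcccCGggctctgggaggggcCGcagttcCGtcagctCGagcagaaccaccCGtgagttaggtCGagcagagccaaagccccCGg
Fzd5: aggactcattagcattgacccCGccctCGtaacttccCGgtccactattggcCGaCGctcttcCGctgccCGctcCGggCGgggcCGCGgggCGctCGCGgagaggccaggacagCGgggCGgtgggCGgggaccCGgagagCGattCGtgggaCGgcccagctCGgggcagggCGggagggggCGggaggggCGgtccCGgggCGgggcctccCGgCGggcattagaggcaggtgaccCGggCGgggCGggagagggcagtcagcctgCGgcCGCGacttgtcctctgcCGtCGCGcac
The Wnt10b window held 18 CpG dinucleotides at 66.3% G and C, and the Fzd5 window 38 at 75.7%. Of the 34 genes, 23 had such a window (24 windows in all), and these held 6 to 58 CpG dinucleotides with a median of 26.5, while the median of all 32851 windows in the table was 7. The letters ATCAAAG, a sequence bound by the TCF and LEF factors of the β-catenin pathway, or their reverse complement CTTTGAT stood in 1 of the 24 windows, that of Wnt11, and in 3.73% of all windows. Neither the Wnt10b nor the Fzd5 window held it.

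Most of the 34 genes read low. The median gene of an array lay between 5.03 and 5.09 on the log2 scale, and 30 of the 34 genes (88.2%) lay below it on every array, compared with 43.3% of all genes. The mean over the 8 arrays exceeded the median of gene means (5.07) for 4 members: the ligands Wnt10a and Wnt10b and the receptors Fzd5 and Fzd6. Only Wnt10a and Fzd5 exceeded the median gene on all 8 arrays, which is 5.88% of the members, while 44.0% of all genes did so. The median of the members' means was 4.09. By family, this median was 4.33 for Wnt genes, 3.61 for Frizzled genes, 3.32 for Sfrp genes and 4.19 for Dkk genes. These are levels of probe response as well as of RNA, since probes for different genes differ in brightness, so a rank against the median gene is a description and not a comparison of amounts. No background level was available in the gene table. Signals under the first quartile of an array (3.52 to 3.71) are not shown to exceed background, and the mean of 11 members lay under the first quartile of gene means (3.61).

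**Figure D1:**
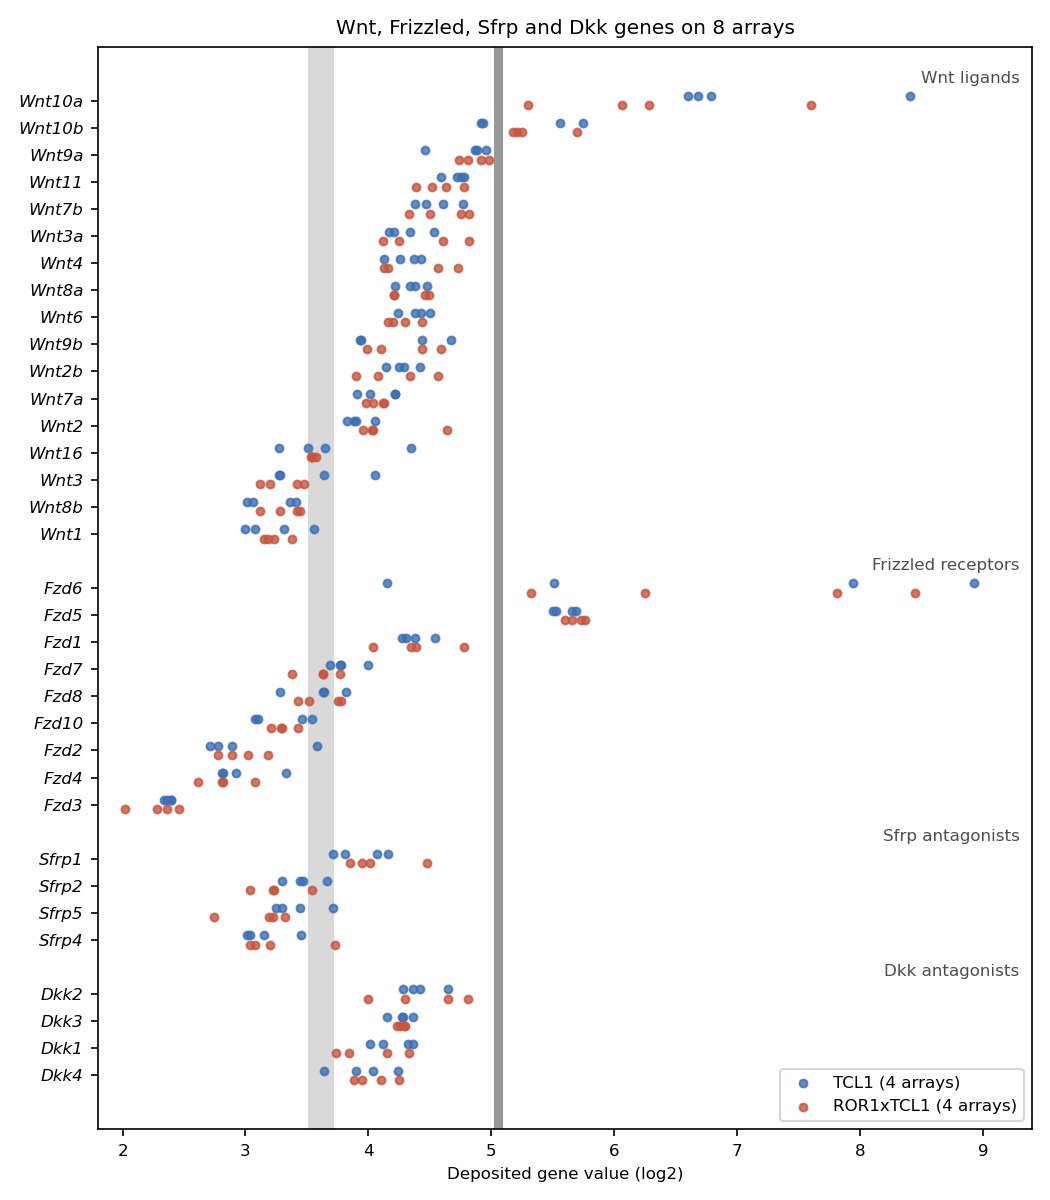
Deposited gene value (log2, horizontal axis) of each of the 34 genes on each of the 8 arrays, by family and in the order of their means. Points are arrays, in blue for TCL1 and red for ROR1xTCL1. The dark band spans the medians of the 8 arrays (5.03 to 5.09) and the light band their first quartiles (3.52 to 3.71). Points of Wnt10a, Wnt10b, Fzd5 and Fzd6 are the only ones to the right of the dark band.

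Among the ligands, Wnt10a (NCBI Gene 22409, chromosome 1), a ligand of tooth, hair and skin appendage development, had the highest level. It read 6.60, 6.79, 8.41 and 6.68 on TCL1 arrays a to d and 7.60, 5.30, 6.06 and 6.28 on ROR1xTCL1 arrays a to d. TCL1 array c and ROR1xTCL1 array a stood above the other 6, both over the third quartile of their array, and the groups overlapped. The 8 values spanned 3.11 log2 units, or 8.64-fold. The group means were 7.12 ± 0.86 in TCL1 and 6.31 ± 0.96 in ROR1xTCL1 (SD, n = 4 each). The difference of -0.81 ± 0.54 (SE) had a 95% interval of -2.03 to 0.40 and did not pass (limma, Benjamini-Hochberg adjusted p = 1, unadjusted p = 0.164). This was the only absolute difference of at least 0.5 among the 34 genes. It changed with single arrays, from -0.38 without TCL1 array c to -1.24 without ROR1xTCL1 array a, and without the latter the groups no longer overlapped.

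Wnt10b (NCBI Gene 22410, chromosome 15), the paralog of Wnt10a and a ligand that restrains fat cell formation, lay close to the median gene. It read 4.93, 4.92, 5.75 and 5.56 in TCL1 and 5.70, 5.18, 5.21 and 5.25 in ROR1xTCL1. TCL1 arrays a and b were the 2 below the median gene, and TCL1 arrays c and d and ROR1xTCL1 array a were the 3 highest. The group difference was 0.05 ± 0.22 (SE, 95% interval -0.45 to 0.54), within the spread of either group.

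The other 15 ligands lay below the median gene on all 8 arrays. Wnt9a, a ligand of joint formation, came nearest with 4.46 to 4.98, followed by Wnt11, a mostly β-catenin-independent ligand of kidney and heart development, with 4.39 to 4.78, and Wnt7b with 4.33 to 4.82. Wnt3a, the ligand most used to activate β-catenin signalling in culture, read 4.12 to 4.82. Wnt4, Wnt8a and Wnt6 had means of 4.35, 4.35 and 4.33, and Wnt9b, Wnt2b, Wnt7a and Wnt2 had means of 4.26, 4.25, 4.08 and 4.04. The ranges of neighbours in this order overlapped. The order also differed when gene values were taken as the mean of their probe sets, where Wnt9b averaged 4.95, Wnt4 4.66 and Wnt11 3.82. Wnt3, reported in human leukemia cells, read 3.12 to 4.05 and fell under the first quartile on 6 arrays. Wnt1, first found through virus insertions in mouse mammary tumours, and Wnt8b lay under the first quartile on all 8.

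Wnt16, a ligand with a known role in bone strength, was the third member with a span of at least 1 log2 unit. It read 3.65, 4.35, 3.27 and 3.51 in TCL1 and 3.57, 3.54, 3.54 and 3.53 in ROR1xTCL1. TCL1 array b stood highest and the groups overlapped, with an SD of 0.46 among TCL1 arrays and 0.02 among ROR1xTCL1 arrays. The group difference was -0.15 ± 0.21 (SE), and without TCL1 array b it was 0.07. Wnt2, a ligand of lung development, read 3.90, 3.88, 3.83 and 4.05 in TCL1 and 4.03, 4.64, 3.96 and 4.04 in ROR1xTCL1. ROR1xTCL1 array b alone stood apart, and the difference of 0.25 ± 0.16 (SE) was 0.10 without it. The 2 ligands left out of the set, Wnt5a and Wnt5b, read 2.95 to 3.30 and 4.41 to 4.79, with differences of -0.04 ± 0.11 and -0.01 ± 0.12 (SE).

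**Figure D2:**
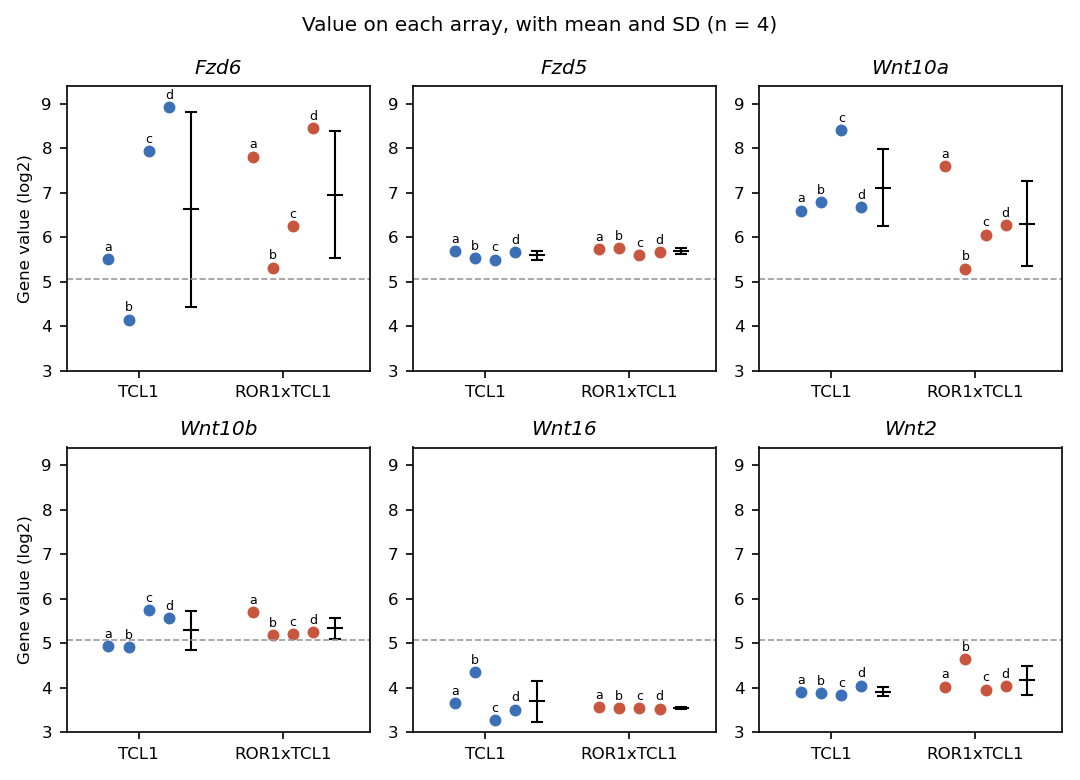
Gene value (log2, vertical axis) on each array for 6 of the members given in full (all but Sfrp5), with the mean and SD of each group (n = 4) as bars. Letters name the arrays and the dashed line is the mean of the array medians (5.07). Fzd6 spans 4.15 to 8.93 with both groups wide, Fzd5 stays between 5.50 and 5.76, and Wnt10a has single high arrays at 8.41 and 7.60.

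Among the receptors, Fzd6 (NCBI Gene 14368, chromosome 15), a Frizzled of planar cell polarity and hair orientation, had the highest mean of all 34 genes and the widest spread. It read 5.51, 4.15, 7.94 and 8.93 on TCL1 arrays a to d and 7.81, 5.32, 6.25 and 8.45 on ROR1xTCL1 arrays a to d. High and low arrays occurred in both groups: TCL1 arrays c and d and ROR1xTCL1 arrays a and d lay above the third quartile of their array, and TCL1 array b lay below the median gene. The span of 4.78 log2 units is 27.5-fold, and the SD over the 8 arrays (1.72) ranked 11 of 16419 genes, so 0.067% of genes varied as much. The group means were 6.63 ± 2.19 in TCL1 and 6.96 ± 1.43 in ROR1xTCL1 (SD, n = 4 each). Their difference of 0.32 ± 1.08 (SE) had a 95% interval of -2.12 to 2.76 (limma, unadjusted p = 0.771), which is wide enough to hold a 4-fold change in either direction. It ranged from -0.50 to 1.09 over the alternatives tried, single arrays left out included.

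Fzd5 (NCBI Gene 14367, chromosome 1), a receptor for Wnt5a among others with a known part in Paneth cell maturation, showed the reverse pattern, a level above the median gene with little variation. It read 5.69, 5.53, 5.50 and 5.66 in TCL1 and 5.73, 5.76, 5.60 and 5.66 in ROR1xTCL1. All 8 arrays lay within 0.26 log2 units (SD 0.09), and 95.1% of genes had an SD as large. The difference was 0.10 ± 0.10 (SE), with a 95% interval of -0.12 to 0.31.

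**Figure D3:**
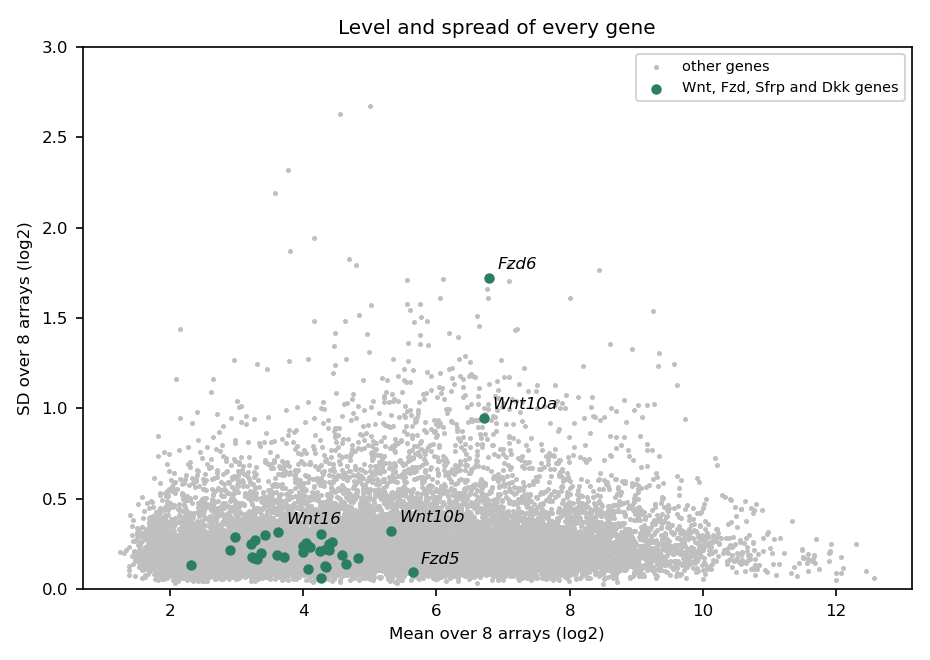
Mean over 8 arrays (log2, horizontal axis) against SD over 8 arrays (log2, vertical axis) for every gene, with the 34 members in green and other genes in grey. Fzd6 (SD 1.72) and Wnt10a (SD 0.95) stand above the other members, and Fzd5 (SD 0.09) lies near the bottom.

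The other 7 Frizzled genes lay below the median gene on all 8 arrays. Fzd1 had a mean of 4.38, and Fzd7, a receptor of stem and progenitor cells in several epithelia, one of 3.71. Fzd8 and Fzd10 averaged 3.61 and 3.30, Fzd2 averaged 2.98, and Fzd4, the Norrin receptor of retinal vessels, averaged 2.90. Fzd3, which acts with Fzd6 in planar polarity and axon guidance, was the lowest member, with a mean of 2.32 and a range of 2.02 to 2.46. Fzd2, Fzd3, Fzd4 and Fzd10 were under the first quartile on every array. For Fzd2 this holds for the gene table only. The mean of its probe sets was 4.43 (deposited value minus this mean, -1.45). Of its 6 probe sets, 3 lay above the median probe set in all 8 samples. The Frizzled gene of smallest p was Fzd7, at 3.81 ± 0.13 in TCL1 and 3.60 ± 0.16 in ROR1xTCL1 (SD, n = 4 each), a difference of -0.21 ± 0.12 (SE, limma unadjusted p = 0.116).

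None of the secreted antagonists reached the median gene on any array. Sfrp1 had a mean of 4.00 (3.71 to 4.48), while Sfrp2, Sfrp5 and Sfrp4 averaged 3.36, 3.27 and 3.21 and were each under the first quartile on 7 of 8 arrays. Sfrp5, a Wnt5a antagonist of fat tissue, had the smallest p of all 34 genes and is given in full for that reason. It read 3.30, 3.44, 3.25 and 3.71 in TCL1 and 3.19, 3.22, 2.74 and 3.32 in ROR1xTCL1. ROR1xTCL1 array c was lowest and array d reached into the TCL1 range. The difference of -0.31 ± 0.16 (SE) did not pass (limma, Benjamini-Hochberg adjusted p = 1, unadjusted p = 0.085), and it was 0.01 when the gene value was taken as the mean of its probe sets. Both group means lay under the first quartiles, so its size is uncertain. Dkk2, Dkk3, Dkk1 and Dkk4 averaged 4.43, 4.27, 4.11 and 4.00. Dkk3, a divergent member not known as an Lrp6 ligand, had the smallest SD of all members, 0.06 over a range of 4.15 to 4.36. The group differences of the 4 Dkk genes ran from -0.19 (Dkk1) to 0.09 (Dkk4).

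No member passed the test between ROR1xTCL1 and TCL1. By limma with Benjamini-Hochberg adjustment over all genes, 0 of 34 passed an adjusted p under 0.05, as did 0% of all genes. At an unadjusted p under 0.05 it was also 0 of 34, beside 1.63% of all genes. The arrays of the groups overlapped for every member, beside 1.10% of all genes whose groups did not overlap. The members' differences ran from -0.81 to 0.32 with a median of 0.007 (all genes -0.011), 18 above 0 and 16 below. The median SD over the 8 arrays was 0.21 for the members and 0.21 for all genes, and 3 members (8.82%) spanned at least 1 log2 unit compared with 21.9% of all genes. A member's 95% interval typically reached 0.35 to either side of its difference (the median over the members). This interval is not adjusted for the number of genes tested, so differences above 0.35 could also miss the adjusted threshold.

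**Figure D4:**
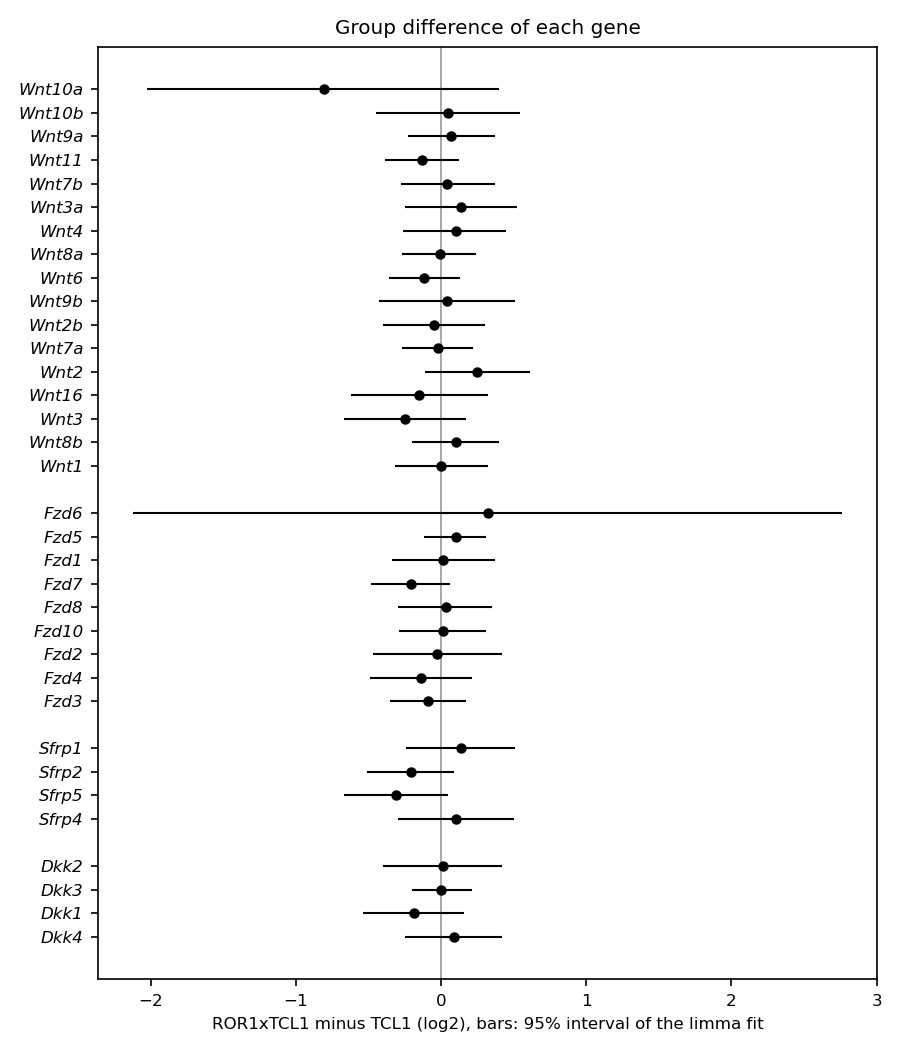
Difference between group means for each of the 34 genes, ROR1xTCL1 minus TCL1 (log2, horizontal axis), with points for the estimate and bars for the 95% interval of the limma fit. Every interval crosses 0, and those of Fzd6 (-2.12 to 2.76) and Wnt10a (-2.03 to 0.40) are the widest.

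The probe set table, which holds the same samples as numbered replicates, shows how much of each gene carried the spread. Of the 14 Fzd6 probe sets, 11 spanned at least 2 log2 units. Probe set 4320123 spanned most, reading 5.37, 2.09, 8.57 and 10 in TCL1 replicates 1 to 4 and 8.64, 5.83, 6.78 and 9.58 in ROR1xTCL1 replicates 1 to 4. TCL1 replicate 4 was the highest sample in 9 of the 14 and TCL1 replicate 2 the lowest in 9. The remaining 3 probe sets (4588092, 4730376 and 5267434) spanned 0.91 to 1.25 and lay between 6.35 and 8.01 in all samples. Of the 8 Wnt10a probe sets, 6 spanned at least 2 log2 units, TCL1 replicate 3 was highest in 7 and ROR1xTCL1 replicate 2 lowest in 5. All 8 averaged lower in ROR1xTCL1, with a median difference of -0.59. They share the gene and the samples and are not independent. The widest, 4366540, read 7.89, 7.38, 9.57 and 7.53 in TCL1 and 9.09, 4.62, 6.56 and 6.74 in ROR1xTCL1. Of the 12 Wnt10b probe sets, 4 spanned at least 2 log2 units. Across all 309 probe sets of the 34 genes, 0 passed an adjusted p under 0.05 (limma over 1236087 probe sets, of which 0% passed). At an unadjusted p under 0.05 there were 9, beside 3.30% of all probe sets.

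**Figure D5:**
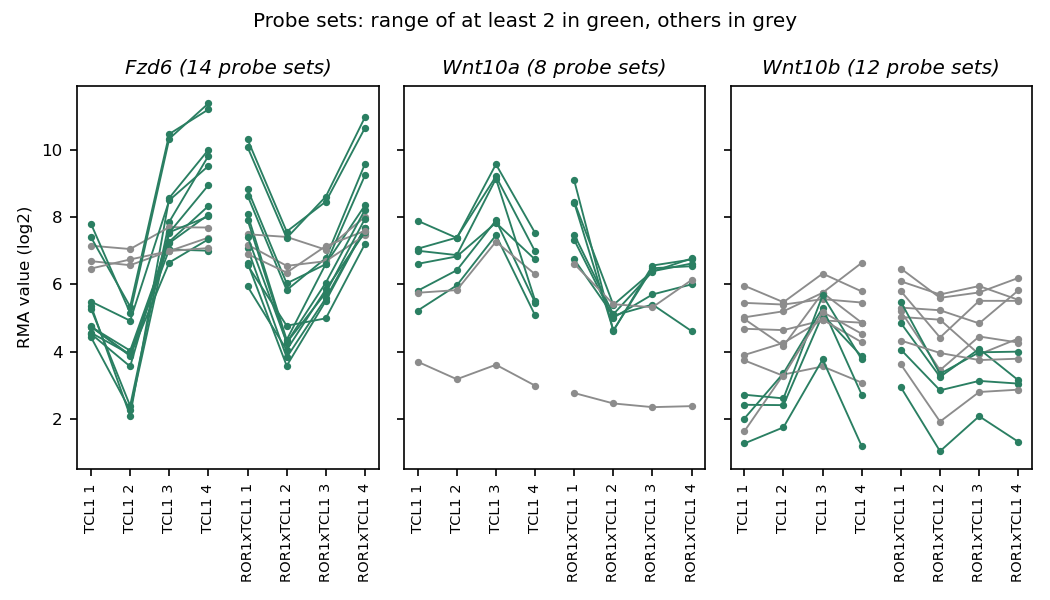
RMA value (log2, vertical axis) of every probe set of Fzd6, Wnt10a and Wnt10b in the 8 samples (horizontal axis). Each line joins the values of 1 probe set within a group, in green where its range is at least 2, and the replicate order has no meaning. The 11 green Fzd6 lines move together, high in TCL1 replicate 4 and low in TCL1 replicate 2.

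Taken as the mean of its probe sets, Fzd6 read 5.67, 4.41, 7.91 and 8.70 in TCL1 and 7.79, 5.45, 6.55 and 8.44 in ROR1xTCL1, and Wnt10a read 6.13, 6.24, 7.75 and 5.82 in TCL1 and 7.11, 4.71, 5.57 and 5.72 in ROR1xTCL1. Fzd6 thus kept its wide spread in both groups, and Wnt10a its 2 high samples. With these means, 5 members exceeded the median gene (4.74 to 4.96 in the 8 samples) on average, and Fzd5 alone did so in all 8, with 7 of 8 for Fzd6 and Wnt10a. Wnt10b then exceeded it in 1 of 8 samples, since its deposited value was 1.07 higher than the mean of its probe sets. Wnt9a and Wnt9b, below the median gene in the gene table, exceeded it in 5 and 4 samples. With probe set medians in place of means it was 2 and 0 samples. Of the 8 Wnt9b probe sets, 4512495 read 9.89 to 10.44, and the others did not exceed 6.16. Fzd2, Wnt4 and Wnt16 exceeded it in 1 sample each with probe set means. The position of Wnt10b, Wnt9a and Wnt9b against the median therefore differs most between the tables.

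Across the 8 arrays, Fzd6 and Wnt10b tended to be high together (Pearson r = 0.79, exact permutation p = 0.0248, Spearman rho = 0.79, exact permutation p = 0.0279). Over the 6 pairs of the 4 members above the median, neither passed Benjamini-Hochberg adjustment (adjusted p = 0.149 and 0.168). Without the 2 arrays farthest from the median of Fzd6, r was 0.70, and with probe set means it was 0.65 (exact permutation p = 0.0729). Wnt10a and Wnt10b gave r = 0.64 (exact permutation p = 0.0959), rho = 0.50 (exact permutation p = 0.216) and r = 0.78 with probe set means (exact permutation p = 0.0335, adjusted p = 0.201). The other 4 pairs gave r of -0.53 to 0.39, with exact permutation p-values of at least 0.183. Y-linked genes read 3 arrays as male (ROR1xTCL1 arrays c and d and TCL1 array c), and neither sex had the 6 arrays needed for a correlation of its own. Fzd6 and Wnt10b are both on chromosome 15. Its 331 genes with means above the median gene had median deviations of 0.08, -0.17, 0.10 and 0.13 on TCL1 arrays a to d. On ROR1xTCL1 arrays a to d these medians were 0.02, 0.04, -0.07 and -0.16. For the 470 such genes of chromosome 1 they lay within -0.06 to 0.04. Fzd6 was lowest on TCL1 array b, where the chromosome 15 median was lowest too, and high on ROR1xTCL1 array d, where it was -0.16. The part of chromosome 15 in the spread of Fzd6 was not tested.

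Markers of other cells varied between the arrays as well. The scores used here are the mean deviation of a list's genes from their own means over the 8 arrays. For neutrophil markers (10 of 12 above the median gene) the scores were 2.66, -1.16, 1.34 and -1.07 on TCL1 arrays a to d and -0.70 to -0.19 in ROR1xTCL1. For erythroid markers (7 of 7 measured) they were -0.71 to 0.59 in TCL1 and -1.16 to 1.99 in ROR1xTCL1, highest on array a, where Wnt10a read 7.60 and Wnt10b 5.70. For plasma cell markers (6 of 6) they were -0.81 to 0.69 in TCL1 and -0.58 to 1.11 in ROR1xTCL1, for monocyte and macrophage markers (9 of 11) -0.75 to 0.99 and -0.52 to 0.91, and for T cell markers (8 of 10) -0.50 to 0.62 and -0.52 to 0.32. TCL1 arrays b and d, the lowest and the highest for Fzd6, had neutrophil scores of -1.16 and -1.07. Their scores were 0.50 and -0.71 for erythroid, 0.16 and -0.75 for monocyte and macrophage, and 0.29 and -0.81 for plasma cell markers. For T cell markers they were -0.10 and -0.50. On TCL1 array c, where Wnt10a read 8.41, the neutrophil score was 1.34 and the erythroid score 0.01. On TCL1 array a, where the neutrophil score was highest at 2.66, Wnt10a read 6.60. On ROR1xTCL1 array a, where Wnt10a read 7.60, the neutrophil score was -0.24. Stromal markers, cells in which many Wnt and Sfrp genes are known to be expressed, lay within -0.08 to 0.08 on all arrays with 3 of 12 above the median gene (Vim, Thy1 and Col1a1), and endothelial markers within -0.14 to 0.17 with 1 of 9 (Pecam1). B cell scores lay within -0.22 to 0.23. The part of these cells in the spread of Fzd6 and Wnt10a was not tested, and in such bulk RNA fewer cells of a type and less RNA per cell cannot be told apart.

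The rest of the pathway was read from 7 lists of 67 genes, of which 62 were measured. None passed the threshold by limma (0 higher and 0 lower), and 4 had an unadjusted p under 0.05 (beside 1.63% of all genes). The mean of 34 of the 62 lay above the median gene, beside 8209 of all 16419 genes. Of the 2 genes needed to release Wnts from the cell, the acyltransferase Porcn read 4.30 to 4.87. Wls, the carrier that takes Wnts to the surface, varied far more, at 6.26, 7.14, 6.91 and 3.86 in TCL1 and 5.98, 4.51, 4.68 and 4.74 in ROR1xTCL1. TCL1 arrays a to c and ROR1xTCL1 array a were high, the groups overlapped, and the difference was -1.06 ± 0.68 (SE), with an SD that ranked 66 of all genes. Wls was high on TCL1 array c, where Wnt10a was highest, and lowest on TCL1 array d, where Fzd6 was highest. It was highest on TCL1 array b, where Fzd6 was lowest and Wnt10a read 6.79. On TCL1 array c and ROR1xTCL1 array a, where Wls was high, Fzd6 was high as well (7.94 and 7.81). A relation among these genes was not tested.

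Of the 7 co-receptors, Ryk (mean 7.07) and Lrp6 (mean 6.97) had the highest values and differed by -0.08 ± 0.21 and 0.12 ± 0.17 (SE). Of the R-spondins and their receptors, 6 of 9 were measured. The receptor-removing ubiquitin ligase Rnf43 had a mean of 6.16 (5.30 to 6.87) and Rspo1 one of 5.07, with differences of 0.15 ± 0.34 and 0.07 ± 0.10 (SE). Of 12 other inhibitors measured, Sostdc1, an Lrp6 antagonist, had a mean of 5.87 (4.78 to 6.52) and Kremen1, a Dkk receptor, one of 5.62. Apcdd1, a surface Wnt inhibitor, read 3.47, 3.33, 2.80 and 3.27 in TCL1 and 2.32, 2.61, 2.77 and 2.78 in ROR1xTCL1. The groups just failed to overlap, with a difference of -0.60 ± 0.17 (SE, limma Benjamini-Hochberg adjusted p = 1), but both means were under the first quartiles and probe set means gave -0.04 ± 0.10 (SE). Apcdd1 and Ror1 were the only 2 of the 62 whose groups did not overlap, beside 1.10% of all genes.

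Inside the cell the pathway's genes were brighter. Of 18 cytoplasmic transducers 12 lay above the median gene, led by the casein kinases Csnk1a1 (mean 9.32) and Csnk1d (mean 8.91), with differences of -0.08 ± 0.13 and 0.01 ± 0.09 (SE). Of 11 TCF/LEF factors and partners measured 8 did, led by the corepressors Tle3 (mean 9.06) and Tle4 (mean 8.80), with differences of -0.02 ± 0.21 and -0.03 ± 0.28 (SE). Among 13 genes known as targets of β-catenin signalling, 8 lay above the median gene, and none passed the threshold. The targets below the median gene were Axin2 (mean 3.96), Nkd1 (mean 4.73), Lgr5 (mean 3.33), Sp5 (mean 4.59) and Notum (mean 4.70). Myc, a growth regulator, had a mean of 10.02 and a difference of -0.05 ± 0.31, and the cyclin gene Ccnd2 a mean of 9.67 and a difference of 0.00 ± 0.16 (SE). The median difference over the target list was 0.00.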

How the data were processed

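RNA of leukemia cells from 8 mice was hybridised to 8 exon arrays. Replicates are animals, since per the series text there were none of a technical kind. The deposited probe set table holds log2 RMA values for 1236087 probe sets, made with the Bioconductor package oligo per the labels and, per the submitters' processing notes, with R 2.15.1. The gene table that the authors deposited holds 16495 rows whose scale is not stated. A range of 0.89 to 12.64 was read as log2, an assumption behind all gene values here. The Affymetrix Exon Array Computational Tool is named in the series text as having processed the arrays. How probe sets became genes is not stated. RMA makes values relative to the other signals of an array, and the number of arrays limits the precision.

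Gene table columns show the genotype but not the sample, so letters a to d were not matched to replicates 1 to 4. All sample columns were used. Spaces after 2303 names were removed, 4 rows with a number for a name were dropped, and 72 names on several rows were averaged (54 differed by over 1 log2 unit, 0 of them members). Of the 16419 genes, 14742 matched a RefSeq symbol (GRCm38.p6), 1439 a synonym, and 238 kept the deposited name. In the platform annotation, 321091 probe sets had 1 gene, 7796 several and 907200 were unnamed here, and only the first kind was used for genes.

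The test of ROR1xTCL1 minus TCL1 was limma's (version 3.58.1 under R 4.3.3; lmFit, then eBayes with its constant prior, 2-sided), with no filter on dim genes. P-values were adjusted by Benjamini-Hochberg over all genes or all probe sets, with a threshold of 0.05. The test was tested on simulated data. Correlations used exact permutation over 40320 pairings in Python 3.11.15 with scipy 1.17.1. Alternatives were other gene summaries, each array centred on its median, other variance estimation, a filter on dim genes, sex as a covariate, the replicate number as a block, and each array left out. Correlations with probe set means were chosen after seeing the data.

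The members and gene lists were chosen with earlier results of these data known. A further B cell marker is not reported here, and the B cell list was computed without it. Members were given on every array where the mean exceeded the median gene, the range was at least 1 log2 unit, the groups did not overlap or an array stood far from its group. Of each other pathway list, the 2 genes of highest mean and any gene with no overlap and a difference of at least 0.5 were named. Genes named outside this rule (Sfrp5 in full) were chosen after their values were seen. Samples with the same replicate number correlated at 0.274, -0.004, 0.236 and 0.099 in their deviations from the group means. These values do not settle whether the numbers pair the samples, and the main test did not pair them.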

Additional observations from a re-analysis of the deposited data

Results flagged for a closer look

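Of 68 groups of 4 arrays (34 genes in each genotype), 3 held an array far from the other 3, with a gap to its nearest neighbour above Dixon's 95% critical value for 4 samples. Chance alone would flag about 3.4 of 68. Wnt10a read 8.41 on TCL1 array c, against 6.60 to 6.79 on the other TCL1 arrays, and 7 of its 8 probe sets were highest in TCL1 replicate 3. Wnt10b read 5.70 on ROR1xTCL1 array a, against 5.18 to 5.25, and its probe set means were highest in the group in ROR1xTCL1 replicate 1 (4.93, against 3.81 to 4.19). Wnt2 read 4.64 on ROR1xTCL1 array b, against 3.96 to 4.04. Its probe set means did not show a sample apart, at 4.21, 4.28, 4.20 and 4.01 in ROR1xTCL1 replicates 1 to 4.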

How the results depend on the processing

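No gene and no member passed an adjusted p under 0.05 by limma under any alternative of the gene table, while 145 to 426 genes, of which 0 or 1 were members, had an unadjusted p under 0.05. No member probe set passed either (6 to 16 with an unadjusted p under 0.05 when 1 sample was left out, 0 to 2 probe sets of the whole table called). The count of members above the median gene on all arrays was 2, and 1 with probe set means. It was 2 to 3 when 1 array was left out, the third being Fzd6 without TCL1 array b. The count of members without overlap was 0, and 1 (Wnt8b, higher) with probe set medians. It was 0 to 2 when 1 array was left out: Fzd7 and Wnt2 without TCL1 array d, and 1 each without ROR1xTCL1 array a (Wnt10a), b (Sfrp2), c (Fzd7) or d (Sfrp5), where 2.27% to 4.20% of all genes did not overlap. The cause was not tested beyond the smaller number of arrays. The median difference over the members ranged from -0.057 to 0.056 when 1 array was left out. With the replicate number as a block on probe set means it was 0.023, with 0 members called. Each number marks 1 sample of each group, so the block cannot change the differences. The same median without the block is therefore no check. The block on probe sets gave 0 member calls and 11 with an unadjusted p under 0.05. Samples 1 and 3 correlated best with their own number and samples 2 and 4 did not. The sign of the difference changed for 0 to 11 of the 34 members in each alternative, most with probe set medians. Of 533 values of single members under the alternatives, 515 lay within 1 SD of the reported value. The other 18 were spread over 15 members. Part of this count was fixed in advance. Keeping the row of highest mean, other variance estimation and the filter on dim genes cannot change a member's difference. The block repeats the differences of the probe set means. The count is therefore not a measure of robustness. With sex as a covariate, Fzd6 differed by 0.02 and Wnt10a by -0.96. For Wnt16 the difference was -0.64 with probe set medians. The mean of 11 of the 34 genes lay below the first quartile of gene means, where signals are not shown to exceed background.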
